A study of Mus musculus with 33 samples.

Results

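The comparison is of microglia from the corpus callosum (CC) with microglia from the cerebral cortex (Cx) of mice at postnatal day (P)7. Its members are 6 of the 33 libraries of the study, chosen by the region and the age in their labels: 3 CC libraries and 3 Cx libraries. The study sequenced RNA from microglia of the CC, the Cx and the cerebellum (Cb) at P7, P10 and P42. Cells of all groups were sorted by fluorescence (FACS) as CD45+, CD11b+, Gr-, and the mice were untreated and kept under specific pathogen-free conditions. Wild-type C57BL/6 J and Cx3cr1 GFP/WT mice were bred for the study, and which of the 2 lines gave the sequenced cells is not given in the sources used here. Each side held 2 male libraries and 1 female library. Whether a library came from 1 animal is not given either, so p-values measure the spread between libraries only, which may be technical. That spread was estimated in 1 fit of all 33 libraries, those of the other ages and the Cb included.

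Microglia are the resident macrophages of the brain parenchyma and need signalling through the CSF1 receptor to survive. The CC is the main fibre tract between the hemispheres, and in the days after birth, before and while its axons are myelinated, rounded (amoeboid) microglia gather in it, whereas those of the cortical grey matter are branched. Microglia of the healthy adult brain are known by a set of homeostatic genes such as P2ry12 and Tmem119. Amoeboid microglia of developing white matter, and microglia around lesions, are known for high levels of another set, which includes Spp1, Gpnmb, Itgax, Clec7a, Igf1 and Apoe.

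Between 24383544 and 40575511 reads were counted on genes in the 6 libraries, so that 1 read was worth at most 0.041 CPM (counts per 1000000 reads, here with library sizes scaled by the trimmed mean of M values). Over 10493 genes the first principal component held 50.7% of the variance and put the 3 CC libraries on one side and the 3 Cx libraries on the other. The root mean square log2 difference between libraries of 1 region was 0.389 to 0.544, and between regions it was 0.557 to 0.761. Genes that define microglia were high on both sides: Cx3cr1, the fractalkine receptor, stood at 1844, 1787 and 1651 CPM in the CC and at 1753, 2037 and 1809 CPM in the Cx, and Csf1r, the receptor for CSF1, differed by -0.01 on the log2 scale. Defining genes of lymphocytes summed to at most 0.112 CPM in each library.

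In the CC, 108 genes were higher than in the Cx and 30 were lower, out of 20917 tested. A gene was called when its adjusted p was at most 0.01 (edgeR quasi-likelihood test, Benjamini-Hochberg adjustment) and its log2 fold change at least 1 in size. The 138 called genes are 0.66% of those tested, with 0.516% called higher and 0.143% called lower. The median log2 difference over all genes tested was -0.06, and 43.7% of genes lay above 0. In all 138 called genes the 3 CC libraries and the 3 Cx libraries did not overlap, which was also so of 8.9% of all genes with the CC higher and of 11.3% with the CC lower. DESeq2 called 258 genes, 171 higher and 87 lower, and the count fell to 91 without CC replicate 3. The 30 lower calls became 12 without CC replicate 1 or CC replicate 3, 14 without Cx replicate 2 and 16 without Cx replicate 1 or Cx replicate 3.

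**Figure D1:**
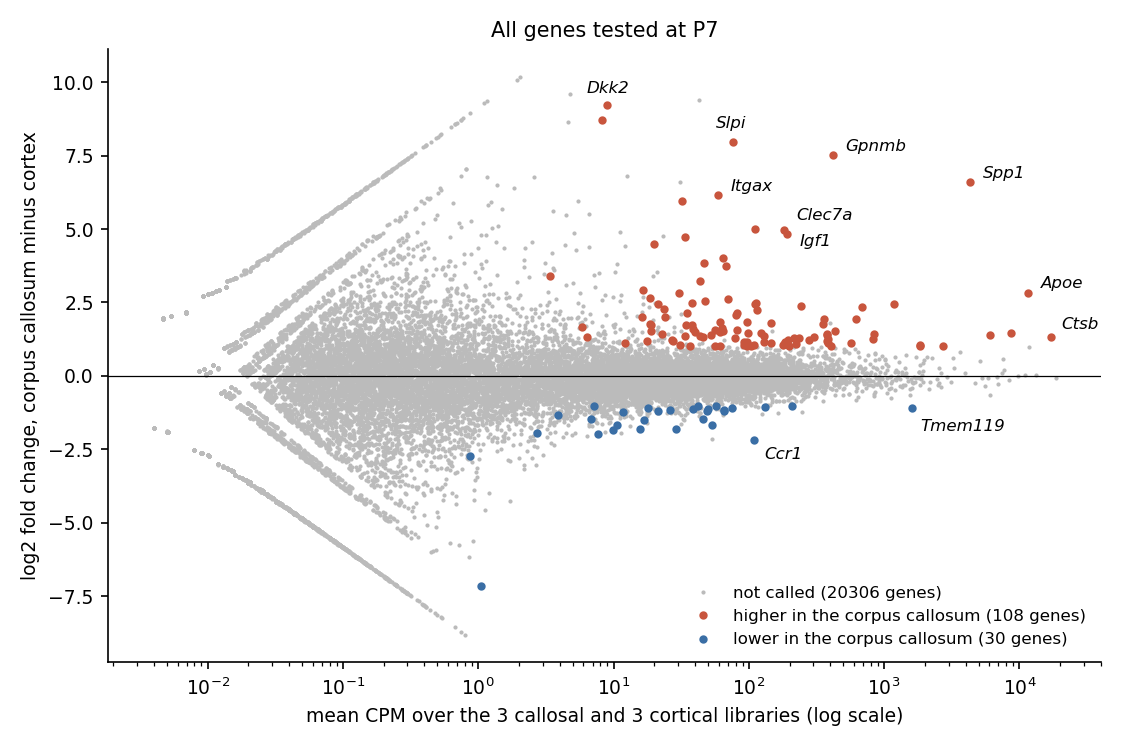
Each point is 1 gene, with its mean level over the 6 libraries at P7 on the x axis (CPM, log scale) and its log2 fold change, CC minus Cx, on the y axis; coloured points are the 108 genes called higher and the 30 called lower in the CC. Genes with no read in the 6 libraries are left out. Called increases reach further from 0 than called decreases at mean levels of at least 10 CPM, where Slpi (7.96) and Ccr1 (-2.19) are the extremes.

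The 4 genes with the largest increases among well-expressed called genes (a mean of at least 10 CPM) were Slpi, Gpnmb, Spp1 and Itgax. The 250 bases before their start sites are given here because these 4 promoters belong to the largest differences between the regions; they are from RefSeq, build GRCm38.p6, 5′ to 3′ on the strand of the gene. Capitals mark the only matches, on either strand, to 3 motifs: CACGTG, the E-box read by MITF and its relatives, TGANTCA, the AP-1 element, and GAGGAAGT, an element of the myeloid factor PU.1. Slpi lies at chr2:164356508-164356757 on the minus strand, Gpnmb at chr6:49036268-49036517, Spp1 at chr5:104434861-104435110 (the first of its 2 start sites) and Itgax at chr7:128129300-128129549, the last 3 on the plus strand.
Slpi: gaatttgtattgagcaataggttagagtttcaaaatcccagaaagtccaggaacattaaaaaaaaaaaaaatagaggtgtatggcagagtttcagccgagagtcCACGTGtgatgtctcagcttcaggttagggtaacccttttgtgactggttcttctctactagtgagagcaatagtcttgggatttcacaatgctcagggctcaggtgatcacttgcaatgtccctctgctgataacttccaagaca
Gpnmb: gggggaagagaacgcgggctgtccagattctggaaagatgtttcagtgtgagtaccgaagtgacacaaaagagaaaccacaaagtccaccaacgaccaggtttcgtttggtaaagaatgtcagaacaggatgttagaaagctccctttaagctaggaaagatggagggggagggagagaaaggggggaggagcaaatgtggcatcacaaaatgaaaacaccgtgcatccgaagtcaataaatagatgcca
Spp1: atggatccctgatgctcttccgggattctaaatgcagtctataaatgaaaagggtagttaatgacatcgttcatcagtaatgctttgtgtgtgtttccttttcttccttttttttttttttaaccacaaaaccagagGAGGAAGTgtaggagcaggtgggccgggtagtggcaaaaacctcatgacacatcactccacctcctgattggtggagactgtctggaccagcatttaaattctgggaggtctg
Itgax: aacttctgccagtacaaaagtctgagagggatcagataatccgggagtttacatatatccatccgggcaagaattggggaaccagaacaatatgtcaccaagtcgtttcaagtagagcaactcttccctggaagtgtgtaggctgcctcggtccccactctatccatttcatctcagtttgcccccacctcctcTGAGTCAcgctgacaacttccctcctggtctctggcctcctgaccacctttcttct
The E-box of Slpi began 146 bases before the start site, the PU.1 element of Spp1 113 bases before it and the AP-1 element of Itgax 56 bases before it, and none of the 3 motifs was found in the Gpnmb window. The E-box was held by 6.02% of all 32851 promoters of this length, the AP-1 element by 6.75% and the PU.1 element by 2.44%. Counted by gene, the E-box was found in 9 of the 87 genes higher in the CC that had a promoter in the table (10.3%, against 6.86% of all genes), the AP-1 element in 7 (8.05%, against 7.82%) and the PU.1 element in 5 (5.75%, against 2.79%). None of the 18 genes lower in the CC held any of them, but at the shares of all genes a set this small would hold few or none. The 2 directions are therefore not contrasted. The genes higher in the CC with the E-box were Abca1, Amdhd2, Bnip3, Ctsa, Ctsl, Cyp4v3, Dpp7, Nceh1 and Slpi. These matches are a description of letters and say nothing of binding.

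The genes are taken by role, secreted proteins first. Slpi, a secreted inhibitor of leukocyte serine proteases, was at 163, 129 and 164 CPM in the CC and at 0.78, 0.957 and 0.0613 CPM in the Cx (log2 fold change 7.96 ± 1.01 SE, edgeR adjusted p = 1.9e-05). The gene was thus close to 0 in the cortex, and well measured in each CC library. Spp1, the secreted matrix phosphoprotein osteopontin, was at 6686, 7402 and 11499 CPM in the CC and at 79.7, 97.7 and 88.6 CPM in the Cx, a 96.2-fold difference (log2 fold change 6.59 ± 0.885 SE, edgeR adjusted p = 1.2e-05). Per kilobase of transcript the level of Spp1 was 5180 CPM in the CC and 53.8 CPM in the Cx, that of Slpi 129 and 0.508 CPM. Under limma-voom Spp1 kept its size but was not called (adjusted p = 0.11), and 18.8% of its exon bases are shared with another annotated gene, Gm42793. Igf1, a growth factor for neurons and oligodendrocytes, was at 310, 402 and 405 CPM in the CC and at 10.5, 13.3 and 15.2 CPM in the Cx (log2 fold change 4.84 ± 0.566 SE, edgeR adjusted p = 1e-06). Its Cx libraries were all far below its CC libraries.

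Among membrane proteins, Gpnmb, a glycoprotein of lysosomes and the cell surface, was at 775, 812 and 898 CPM in the CC and at 7.71, 3.09 and 2.76 CPM in the Cx, 184-fold apart (log2 fold change 7.52 ± 1.05 SE, edgeR adjusted p = 2e-05). Itgax, the integrin chain CD11c, was at 92.3, 137 and 123 CPM in the CC and at 1.95, 2.18 and 0.735 CPM in the Cx (log2 fold change 6.17 ± 0.591 SE, edgeR adjusted p = 2.5e-08). Clec7a, the beta-glucan receptor dectin-1, was at 312, 375 and 370 CPM in the CC and at 11.1, 11.9 and 10.8 CPM in the Cx (log2 fold change 4.97 ± 0.329 SE, edgeR adjusted p = 1.1e-11). For all 3, the Cx libraries lay far below the CC libraries.

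Of the other genes with large increases, Lgals3 (the lectin galectin-3) was at 47.3, 43.0 and 106 CPM in the CC against 1.44, 2.01 and 3.95 CPM in the Cx (log2 fold change 4.73, edgeR adjusted p = 0.00065), and without Cx replicate 1 its adjusted p was 0.011. Anxa2, a calcium-dependent binder of membranes and actin, was at 96.1, 101 and 167 CPM in the CC and at 5.28, 7.65 and 9.71 CPM in the Cx (log2 fold change 4.01, edgeR adjusted p = 0.0052). CC replicate 3 was the highest library for both. Hpse, the enzyme heparanase that cleaves heparan sulphate, was at 192, 215 and 238 CPM in the CC and at 5.34, 7.17 and 7.35 CPM in the Cx (log2 fold change 5.02, edgeR adjusted p = 0.0048). Hpse and Anxa2 lay close to the limit: Hpse was not called without any 1 of the 6 libraries (adjusted p 0.012 to 0.042), and Anxa2 without each of CC replicates 1 and 3 and Cx replicates 1, 2 and 3 (0.011 to 0.046). Fam20c, a kinase of secreted proteins, was at 36.7, 64.4 and 89.8 CPM in the CC and at 0.3, 1.96 and 0.797 CPM in the Cx (log2 fold change 5.94, edgeR adjusted p = 1.3e-05). Pde2a, a cyclic nucleotide phosphodiesterase, was at 34.3, 39.4 and 41.6 CPM in the CC and at 0.12, 3.11 and 1.84 CPM in the Cx (log2 fold change 4.50, edgeR adjusted p = 0.00016). Neither gene's groups overlapped, and their Cx levels were low.

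**Figure D2:**
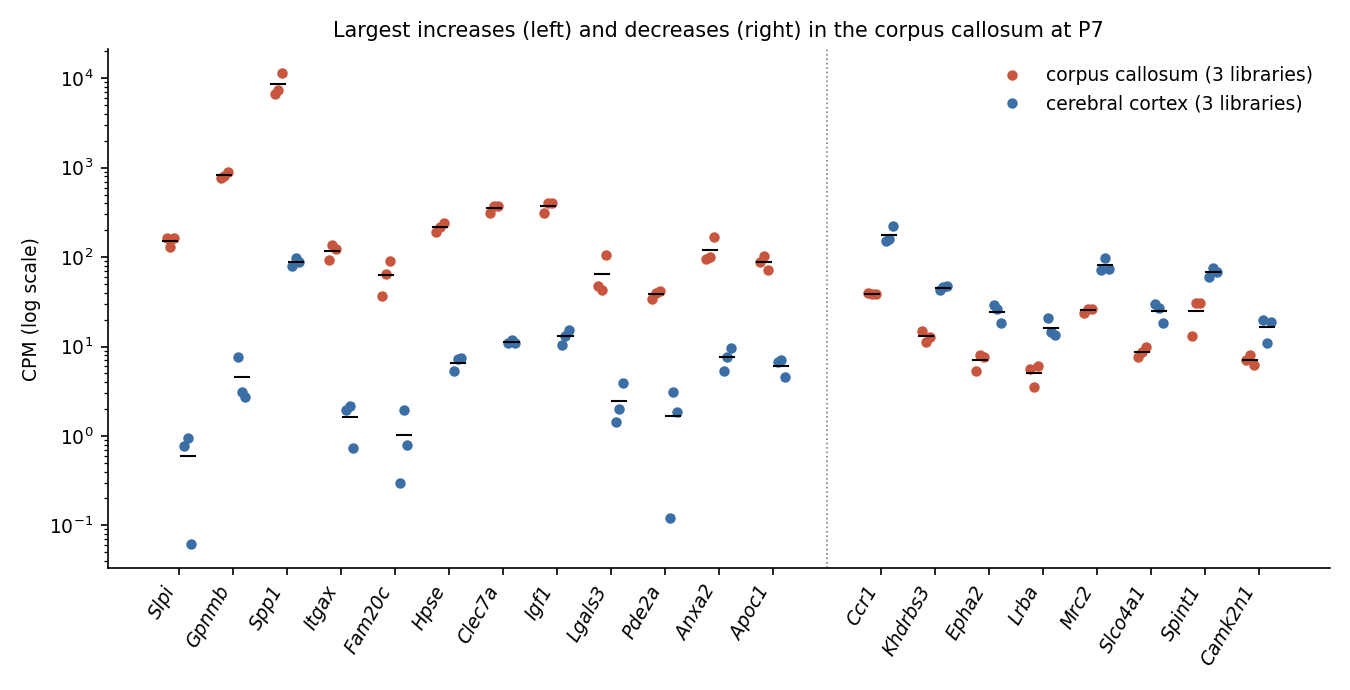
CPM at P7 (log scale) of the 12 genes with the largest increases and the 8 with the largest decreases in the CC, with 1 point for each of the 3 CC and the 3 Cx libraries. In all 20 genes the CC and Cx points are separate; Slpi, Gpnmb and Spp1 are furthest apart, and Camk2n1 the closest.

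The study's own list of 12 priming genes, which it described in these same samples and whose count is therefore no independent evidence of direction, had 7 called higher and 0 lower, with a median log2 fold change of 3.75: Clec7a, Igf1, Spp1, Anxa5, Gpnmb, Itgax and Lgals3. The 7 are 58.3% of the list, against 0.66% of all genes tested and 1.56% of those averaging at least 10 CPM. The called shares of the lists below have the same background. Anxa5, which binds phosphatidylserine, was at 387, 372 and 467 CPM in the CC and at 75.5, 84.7 and 75.9 CPM in the Cx (log2 fold change 2.38, edgeR adjusted p = 1.5e-08). Mrc1, the mannose receptor CD206, pointed the other way without a call, at 411, 530 and 411 CPM in the CC and at 796, 684 and 905 CPM in the Cx (log2 fold change -0.82, edgeR adjusted p = 0.62). Axl, a receptor for bridged phosphatidylserine, was at 72.8, 70.5 and 67.1 CPM in the CC and at 46.1, 52.4 and 39.4 CPM in the Cx (edgeR adjusted p = 0.58).

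Genes of lipid handling were the list with the most calls. Of 23 tested, 9 were higher in the CC and 0 lower (median log2 fold change 1.52, or 1.47 after a correction for counts at or under a detection limit of 3 reads a library, in which a gene so low in both regions is left out and one so low in 1 region is set to its bound). The called share was 39.1%, against 0.66% of all genes and 1.56% of those averaging at least 10 CPM. Apoe, the main lipid carrier made by glia, was at 19572, 19271 and 22115 CPM in the CC and at 2919, 3452 and 2170 CPM in the Cx, 7.14-fold apart (log2 fold change 2.83 ± 0.251 SE, edgeR adjusted p = 5.8e-09). Each CC library was thus far above each Cx library. Under limma-voom Apoe kept its size and was not called (adjusted p = 0.41). Apoc1, the neighbouring apolipoprotein gene, was at 87.0, 102 and 72.2 CPM in the CC and at 6.66, 7.03 and 4.50 CPM in the Cx (log2 fold change 3.84, edgeR adjusted p = 1.3e-05). Fabp5, which carries fatty acids in the cytosol, was at 95.5, 114 and 168 CPM in the CC and at 11.1, 8.90 and 8.33 CPM in the Cx (log2 fold change 3.73, edgeR adjusted p = 3.5e-05).

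The called lipid genes covered uptake, storage and efflux. Lpl, the secreted lipoprotein lipase, was 1.42 higher on the log2 scale, and Lipa, which hydrolyses cholesteryl esters in the lysosome, 1.18 higher. Plin2, the coat of lipid droplets, was 1.78 higher and Soat1, which esterifies cholesterol for storage, 1.28 higher. The cholesterol exporter Abca1 was at 684, 724 and 505 CPM in the CC and at 200, 193 and 275 CPM in the Cx (log2 fold change 1.52, edgeR adjusted p = 1.5e-05). Its partner Abcg1 was at 243, 216 and 224 CPM and at 76.3, 67.0 and 52.6 CPM (3.48-fold higher, edgeR adjusted p = 1.7e-10). Abca1 was also the only call in the study's list of 5 phagocytosis genes (20%, against 0.66% of all genes), whose median log2 fold change was 0.96.

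Of 19 genes of sterol and fatty acid synthesis, 0 were called higher and 1 lower (5.26%, against 0.66% of all genes), and the median was -0.67. In 11 of the 19, all 3 CC libraries lay below all 3 Cx libraries. That was so of 11.3% of all genes and of 17% of genes at or above 10 CPM on average. The called gene was Srebf2, the transcription factor that drives cholesterol synthesis, at 41.1, 51.0 and 51.5 CPM in the CC and at 98.6, 121 and 87.4 CPM in the Cx (log2 fold change -1.10, edgeR adjusted p = 0.0014). It was not called without CC replicate 1 (-0.99, adjusted p = 0.019) or without Cx replicate 2 (-0.94, adjusted p = 0.016). Sqle, an early oxygen-requiring enzyme of the pathway, was at 12.1, 22.1 and 25.5 CPM in the CC and at 84.9, 87.9 and 90.0 CPM in the Cx and was not called (log2 fold change -2.14, edgeR adjusted p = 0.058).

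Lysosomal genes were higher in the CC in 6 of 31 tested and lower in 0 (19.4%, against 0.66% of all genes), with a median of 0.61. Of the 31, 20 had all CC libraries above all Cx libraries, against 8.9% of all genes. With no limit on the fold, 15 passed as higher and 0 as lower at an adjusted p under 0.01, which 1.63% of all genes did, 1.14% of them as higher. The proteases led in abundance: Ctsb, cathepsin B, was at 24981, 23738 and 24361 CPM in the CC and at 8802, 11325 and 9273 CPM in the Cx (log2 fold change 1.31, edgeR adjusted p = 2.4e-13). Ctsl, cathepsin L, was at 9100, 8281 and 9092 CPM and at 3499, 3455 and 3245 CPM (log2 fold change 1.38, edgeR adjusted p = 2.1e-13). Both were higher in each CC library than in any Cx library. Ctsb was not called under limma-voom (adjusted p = 0.035), and 16.2% of its exon bases are shared with Fdft1. Ctsa, which protects other lysosomal enzymes, and the tetraspanin Cd63 were 1.03 and 1.13 higher on the log2 scale, Ctsa falling under the fold limit without CC replicate 1 (0.99) or Cx replicate 3 (0.95). A pseudogene of Cd63, Cd63-ps, was called too, so the 2 may share reads. Atp6v0d2, a subunit of the proton pump of lysosomes and osteoclasts, was at 59.5, 83.3 and 112 CPM in the CC and at 0.06, 0.287 and 0 CPM in the Cx and just missed the limit (edgeR adjusted p = 0.011).

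Of 35 receptors and machinery genes of engulfment, 1 was called higher and 0 lower, with a median of 0.23. That is 2.86%, against 0.66% of all genes and 1.56% of those averaging at least 10 CPM. With 1 call the share was close to that of genes at this level. The call was Clec7a, which is also among the study's priming genes. Values lay above 0 in 24 of the 35, against 43.7% of all genes. All CC libraries were above all Cx libraries in 11 (against 8.9% of all genes) and below them in 4 (against 11.3%). With no fold limit 4 passed as higher and 1 as lower, against 1.14% and 0.488% of all genes. Without the fold limit Trem2, a lipid-sensing receptor of microglia, passed as higher in the CC (1886, 1697 and 1796 CPM against 1198, 1238 and 871 CPM, log2 fold change 0.70, edgeR adjusted p = 2.8e-05). The Fc receptors Fcgr2b and Fcgr3 passed as higher too, and the integrin chain Itgav as lower. Tyrobp, the signalling partner of Trem2, stood at 2050, 2436 and 2205 CPM against 1889, 1875 and 1224 CPM (edgeR adjusted p = 0.026). Complement genes had 1 call of 15 (6.67%, against 0.66% of all genes), Itgax, which also codes a complement receptor chain. The C1q genes C1qa, C1qb and C1qc were 0.10 to 0.19 higher without a call.

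Of 20 homeostatic genes tested, 0 were called higher and 1 lower (5%, against 0.66% of all genes), with a median log2 fold change of -0.35. Tmem119, a membrane protein of microglia, was at 1159, 1017 and 910 CPM in the CC and at 2001, 2647 and 1959 CPM in the Cx (log2 fold change -1.10 ± 0.113 SE, edgeR adjusted p = 9.6e-08). Without Cx replicate 2 the value was -0.92, under the fold limit. Without the fold limit 8 of the 20 passed as lower, against 0.488% of all genes: P2ry12, P2ry13, Tmem119, Olfml3, Selplg, Slc2a5, Golm1 and Tgfbr1. P2ry12, the purinergic receptor that guides microglial processes, was at 5080, 4801 and 4362 CPM in the CC and at 6707, 7413 and 8219 CPM in the Cx (log2 fold change -0.65, edgeR adjusted p = 0.0001). The 2 regions did not overlap for it, whereas they did for Cx3cr1 and Csf1r.

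**Figure D3:**
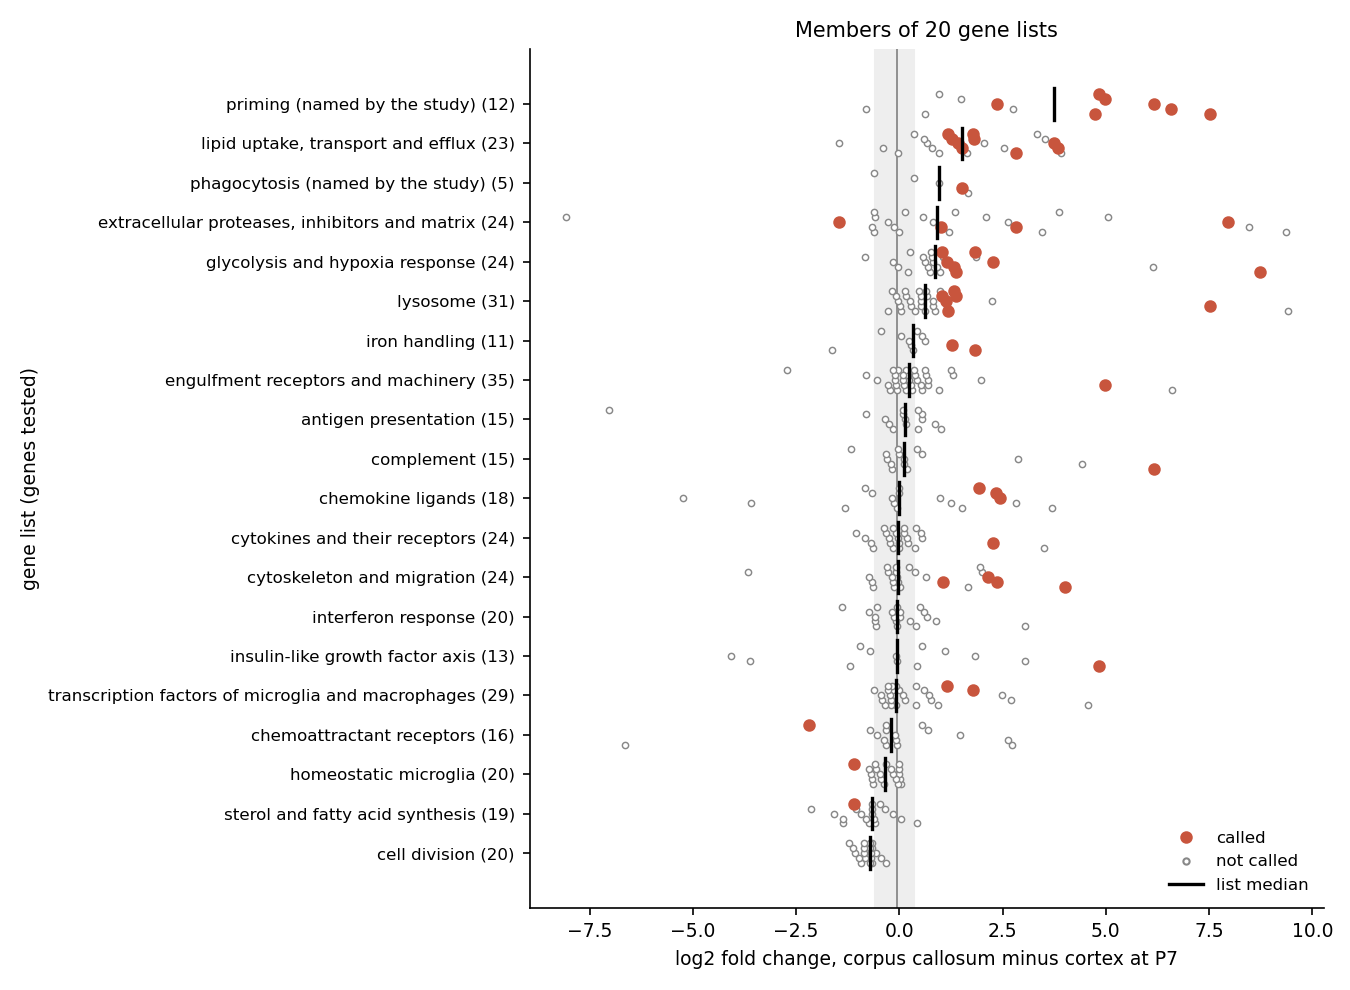
Log2 fold change at P7, CC minus Cx, of each tested gene of the 20 pathway lists, 1 row for each list; filled points passed both limits, black bars are list medians, and the grey line and band are the median and quartiles of all genes tested. The priming and lipid lists lie furthest to the right (medians of 3.75 and 1.52), and the synthesis and cell division lists to the left (-0.67 and -0.70).

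Ligands that attract leukocytes were higher in the CC in 3 of 18 tested and lower in 0 (median 0, or 0.46 after that correction). That share was 16.7%, against 0.66% of all genes. Ccl6 was at 1067, 1141 and 1215 CPM in the CC and at 225, 254 and 200 CPM in the Cx (log2 fold change 2.33, edgeR adjusted p = 1.7e-13). Ccl9, its neighbour in the same cluster of chemokine genes, was at 528, 588 and 589 CPM and at 152, 153 and 144 CPM (log2 fold change 1.93, edgeR adjusted p = 6.8e-10). Ccl3 was at 190, 144 and 232 CPM in the CC and at 44.5, 22.4 and 37.9 CPM in the Cx (log2 fold change 2.43, edgeR adjusted p = 0.002), and was not called without CC replicate 3 (adjusted p = 0.013), Cx replicate 2 (0.021) or Cx replicate 3 (0.013). In contrast, Ccl12, a monocyte attractant, stood at 54.5, 86.9 and 73.5 CPM in the CC and at 192, 174 and 166 CPM in the Cx without a call (log2 fold change -1.31, edgeR adjusted p = 0.054).

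Of 16 receptors for chemoattractants, 0 were called higher and 1 lower (6.25%, against 0.66% of all genes). Ccr1, a receptor of Ccl3 and related ligands, was at 39.5, 39.0 and 38.7 CPM in the CC and at 152, 158 and 225 CPM in the Cx, 4.56-fold lower and the largest decrease among well-expressed genes (log2 fold change -2.19 ± 0.481 SE, edgeR adjusted p = 0.0064). The CC libraries were nearly equal, yet the call was lost without any 1 of the 6 libraries (adjusted p 0.012 to 0.043).

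Among 24 cytokines and their receptors 1 was called higher and 0 lower (4.17%, against 0.66% of all genes). Csf1, the growth factor that sustains microglia, was at 145, 186 and 236 CPM in the CC and at 36.2, 45.4 and 36.7 CPM in the Cx (log2 fold change 2.26 ± 0.358 SE, edgeR adjusted p = 0.00012), while its receptor Csf1r differed by -0.01. Of 13 genes of the insulin-like growth factor axis Igf1 was the only call (7.69%), and the list's median was -0.07 (0.18 after that correction). No gene of the interferon response (20 tested, median -0.06) or of antigen presentation (15 tested, median 0.14) was called, in an edgeR test in which 11.5% of all genes had an unadjusted p under 0.05.

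The list of extracellular proteases, their inhibitors and matrix genes had 3 of 24 higher and 1 lower (median 0.91, or 1.00 after that correction). The called share was 16.7%, against 0.66% of all genes. Beside Slpi, the urokinase receptor Plaur was at 52.2, 44.8 and 63.3 CPM in the CC and at 6.54, 9.30 and 6.65 CPM in the Cx (log2 fold change 2.83, edgeR adjusted p = 7.4e-05). Serpine2, an inhibitor of thrombin and urokinase, was at 2630, 2203 and 2488 CPM in the CC and at 1080, 1355 and 1221 CPM in the Cx and sat on the fold limit (log2 fold change 1.00, edgeR adjusted p = 1.7e-10), below it without CC replicate 1 (0.95), CC replicate 3 (just under 1) or Cx replicate 1 (0.95). Spint1, a membrane-bound inhibitor of serine proteases, was the lower one, at 13.0, 30.5 and 30.5 CPM in the CC and at 60.1, 75.6 and 67.5 CPM in the Cx (log2 fold change -1.45, edgeR adjusted p = 5.9e-05). Mmp12, macrophage elastase, had 34, 75 and 115 reads in the CC libraries and 0 in each Cx library, at least 27.7-fold higher against a limit of 3 reads a library, and was not called (edgeR adjusted p = 0.15).

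Genes of glycolysis and the hypoxia response were higher in 7 of 24 tested and lower in 0, with a median of 0.86. The called share was 29.2%, against 0.66% of all genes. The glycolytic enzymes Aldoa, Tpi1, Pfkl and Gpi1 were 1.38, 1.32, 1.16 and 1.04 higher on the log2 scale. Aldoa was at 525, 512 and 605 CPM in the CC and at 206, 249 and 174 CPM in the Cx (edgeR adjusted p = 7.6e-09). Pfkl and Gpi1 fell under the fold limit without CC replicate 3 (0.98 and 0.93), and Gpi1 also without Cx replicate 3 (0.99). Slc16a3, which exports lactate, was at 74.4, 94.9 and 118 CPM in the CC and at 24.4, 33.1 and 23.5 CPM in the Cx (log2 fold change 1.82, edgeR adjusted p = 1.5e-07). Bnip3, a mitophagy receptor induced by low oxygen, was at 34.5, 32.0 and 50.2 CPM and at 7.71, 10.0 and 6.43 CPM (log2 fold change 2.27, edgeR adjusted p = 1e-06).

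Egln3, a prolyl hydroxylase of hypoxia-inducible factors, was at 9.09, 11.5 and 28.6 CPM in the CC and at 0, 0.0957 and 0 CPM in the Cx (edgeR adjusted p = 0.0065). Its fitted log2 fold change of 8.73 depends on how counts of 0 are handled, and the call was lost without any 1 of the 6 libraries (adjusted p 0.011 to 0.058). In iron handling 2 of 11 were higher and 0 lower (18.2%, against 0.66% of all genes). Hmox1, heme oxygenase, was at 164, 148 and 142 CPM in the CC and at 24.2, 48.5 and 55.6 CPM in the Cx (log2 fold change 1.82, edgeR adjusted p = 0.0003). The ferritin light chain gene Ftl1 was at 1198, 1063 and 1229 CPM in the CC and at 514, 551 and 380 CPM in the Cx (log2 fold change 1.27, edgeR adjusted p = 6.9e-07). Of its exon bases, 26.5% are shared with the annotated gene RP23-218K15.7 and 8.13% with Gm22133. Beside Hmox1, which is also induced by heme, the summed level of 6 red cell genes was 2.07, 46.7 and 15.4 CPM in the CC and 0.84, 0.526 and 0.0919 CPM in the Cx, and their part in the result was not tested.

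Of 24 genes of the cytoskeleton and migration 4 were higher and 0 lower (16.7%, against 0.66% of all genes), with a median of -0.04. They were Anxa2, Anxa5, the lectin Lgals1 (122, 120 and 161 CPM against 31.7, 29.6 and 29.1 CPM, log2 fold change 2.16, edgeR adjusted p = 0.00081) and the tetraspanin Cd9 (2405, 2285 and 2759 CPM against 1251, 1228 and 1124 CPM, log2 fold change 1.05, edgeR adjusted p = 9.7e-08). The list's other 20 members, which include the regulators of actin, had no call. Cd9 was 0.97 higher without CC replicate 3, under the fold limit.

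Of 29 transcription factors of microglia and macrophages 2 were called higher and 0 lower (6.9%, against 0.66% of all genes). Among them Mitf, which drives lysosomal and pigment cell genes and of which Gpnmb is a known target in pigment cells, was at 32.9, 26.6 and 27.6 CPM in the CC and at 6.87, 8.25 and 10.3 CPM in the Cx (log2 fold change 1.78, edgeR adjusted p = 0.0039). Mitf was higher in each CC library than in any Cx library, while its call was lost without any 1 library except CC replicate 2 (adjusted p 0.011 to 0.036).

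Genes of cell division lay below 0 in all 20 tested, with a median of -0.70, and 18 had all CC libraries below all Cx libraries, against 11.3% of all genes and 17% of genes at or above 10 CPM on average. None was called with the fold limit. Mki67, a marker of cycling cells, was at 54.2, 92.0 and 78.2 CPM in the CC and at 179, 133 and 161 CPM in the Cx (log2 fold change -1.08, edgeR adjusted p = 0.44). Pcna, the clamp of the replication fork, was at 46.6, 52.9 and 54.9 CPM in the CC and at 79.5, 78.4 and 92.9 CPM in the Cx and passed without the fold limit (log2 fold change -0.70, edgeR adjusted p = 0.0046). In bulk samples, fewer cells of a type and less RNA in each of them cannot be told apart.

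The largest decreases among well-expressed called genes were smaller than the increases and belonged to genes of mixed roles. Khdrbs3, an RNA-binding splicing regulator, was at 15.0, 11.2 and 12.7 CPM in the CC and at 42.5, 46.3 and 47.3 CPM in the Cx (log2 fold change -1.81 ± 0.244 SE, edgeR adjusted p = 1.2e-05). Mrc2, an endocytic collagen receptor, was at 23.4, 26.5 and 26.3 CPM in the CC and at 72.6, 97.0 and 74.1 CPM in the Cx (log2 fold change -1.68 ± 0.286 SE, edgeR adjusted p = 0.00034). Within each region both were tight, and 3.5-fold and 3.2-fold lower in the CC. Lrba, a regulator of vesicle traffic, was at 5.54, 3.50 and 6.11 CPM in the CC and at 20.6, 14.6 and 13.5 CPM in the Cx (log2 fold change -1.68, edgeR adjusted p = 0.00011). Slco4a1, an organic anion transporter, was at 7.68, 8.61 and 9.91 CPM and at 30.1, 26.7 and 18.4 CPM (log2 fold change -1.52, edgeR adjusted p = 0.0003). Neither of these 2 was called under limma-voom (adjusted p 0.084 and 0.029).

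Epha2, an ephrin receptor, was at 5.33, 7.96 and 7.73 CPM in the CC and at 29.0, 26.1 and 18.4 CPM in the Cx (log2 fold change -1.80, edgeR adjusted p = 0.0028). It was called without Cx replicate 3 and lost without each of the other 5 libraries (adjusted p 0.011 to 0.034). Camk2n1, an inhibitor of calcium/calmodulin-dependent kinase II, was at 7.06, 8.12 and 6.17 CPM in the CC and at 19.7, 11.0 and 18.8 CPM in the Cx (log2 fold change -1.21, edgeR adjusted p = 0.0013). Its Cx replicate 2 came closest to the CC, and the call was lost without CC replicate 1 (adjusted p = 0.01, above the limit before rounding), CC replicate 3 (0.019), Cx replicate 1 (0.018) or Cx replicate 3 (0.015).

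Markers of other cells in or near the brain were then compared. Of 11 marker lists, no gene was called except Atf3 in the list of genes that respond to tissue dissociation: it was at 65.3, 29.7 and 76.2 CPM in the CC and at 14.6, 10.6 and 13.2 CPM in the Cx (log2 fold change 2.15, edgeR adjusted p = 2.3e-05). The 12 genes of that list summed to 288, 254 and 306 CPM in the CC and to 260, 314 and 206 CPM in the Cx, so the regions overlapped. The summed level of border macrophage genes, which are the likeliest to share the sort gate, was 910, 1160 and 907 CPM in the CC and 1120, 1001 and 1188 CPM in the Cx. Most of that sum was Mrc1 and Stab1, and 9 of the 11 genes had a value above 0, with a median of 2.13 and 0 calls. Folr2, a folate receptor of these macrophages, was at 37.6, 35.9 and 42.4 CPM in the CC and at 4.05, 3.73 and 2.14 CPM in the Cx (edgeR adjusted p = 0.054). Lyve1, a defining surface marker, was at 0, 10.6 and 2.34 CPM in the CC and at 0, 1.84 and 1.07 CPM in the Cx, so 1 library of each region had no read of it. Oligodendrocyte genes summed to 192, 151 and 139 CPM in the CC and to 136, 163 and 136 CPM in the Cx, those of their precursors to 0.803 to 9.54 CPM and 2.31 to 2.87 CPM, and those of astrocytes to 72.0 to 79.6 CPM and 63.4 to 77.5 CPM, with overlap in each case. By gene, 8 of 9 oligodendrocyte genes had a value above 0 (median 2.21, or 0.39 after the correction for low counts) and 6 of 7 precursor genes did (median 1.14), with 0 calls.

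Monocyte genes were lower in the CC, at 5.91, 5.14 and 7.59 CPM against 11.6, 11.3 and 12.2 CPM, with 3 of 7 at 0 in all 6 libraries. Neutrophil genes were at 1.65, 1.51 and 1.54 CPM in the CC and at 0.75, 0.072 and 0.031 CPM in the Cx, with 6 of 9 at 0 in all 6. The CC sum was nearly all S100a8 (mean 1.49 CPM in the CC and 0.0102 CPM in the Cx). Of the 4 neutrophil genes tested, 3 were at the detection limit in both regions. Neuron genes were at 8.47, 4.53 and 7.76 CPM against 19.9, 11.6 and 10.1 CPM, and endothelial genes at 17.4, 20.5 and 19.4 CPM against 26.4, 26.8 and 33.4 CPM. With 3 libraries against 3, an exact two-sided permutation test cannot give a p below 0.1, and no sum could pass. The part of any of these cells in the called genes was not tested.

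**Figure D4:**
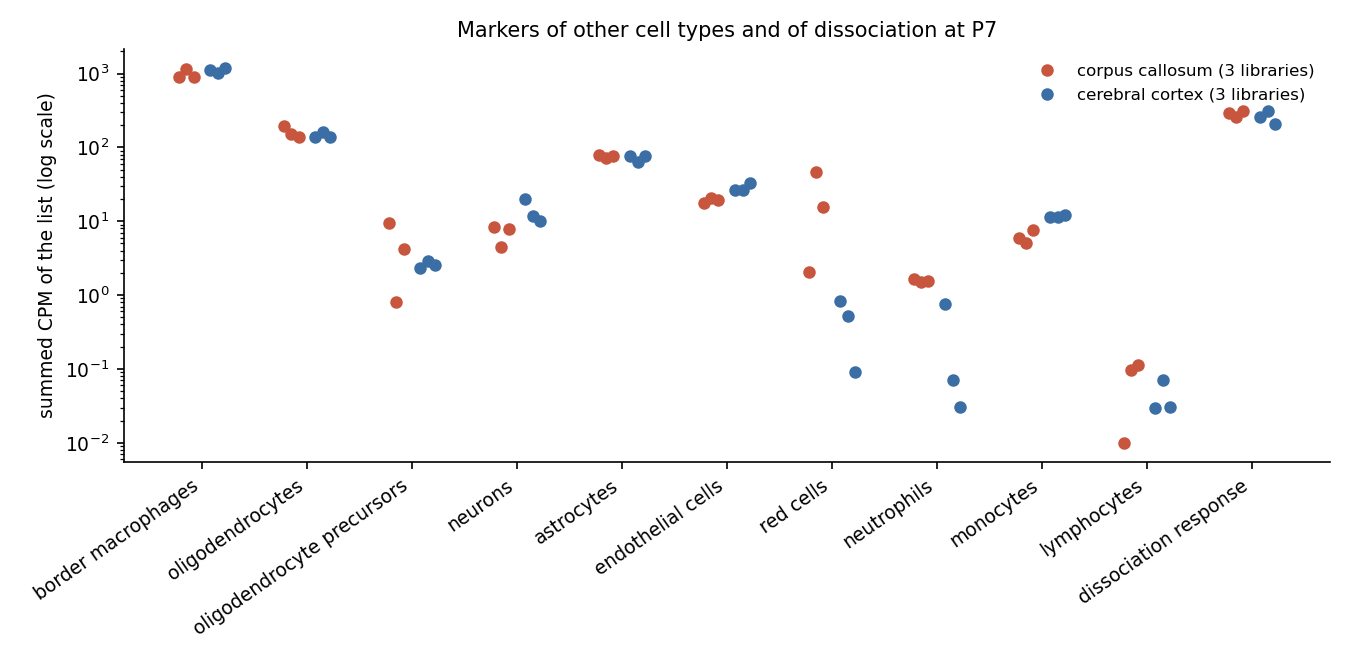
Summed CPM (log scale) of the genes of each marker list in each of the 6 libraries at P7, with sums of 0 drawn at 0.01 CPM. Border macrophage, oligodendrocyte, astrocyte and dissociation sums overlap between the regions, whereas red cell and neutrophil sums are higher in the CC and monocyte, neuron and endothelial sums higher in the Cx.

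The difference between the regions was then followed to the later ages, with 4 libraries of each region at P10 and at P42. Of the 138 genes called at P7, 46 were called in the same direction at P10, 37 of the 108 higher and 9 of the 30 lower. A missing call at P10 does not show a change with age, and 135 of the 138 had the same sign there. The test of the change from P7 to P10, given below, called 7 of the 138. At P10, 121 of all genes tested were called (0.578%), 60 higher (0.287%) and 61 lower (0.292%) in the CC. At P42, where 51 genes were called (0.244%, 20 higher or 0.0956% and 31 lower or 0.148%), 12 of the 138 were called in the same direction, among them Clec7a, Igf1, Anxa2, Apoc1, Fabp5, Apoe, Anxa5, Lpl, Lyz2, Crip1 and Tmem205. Lyz2 codes lysozyme, and with Crip1 and Tmem205 it was chosen only for being called at both ages.

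The change of the CC minus Cx difference with age was tested as an interaction. Between P7 and P10, 11 genes passed (0.0526% of those tested), all with a higher CC minus Cx value at P7, and 0 with a lower one. An unadjusted p under 0.05 was found for 8.72% (edgeR). DESeq2 called 68 with a higher and 33 with a lower CC minus Cx value at P7, and the fit of only the groups compared 4 and 2. Spp1 had fallen in the CC to between 53.9 and 501 CPM at P10 (median 103), against 64.0 to 92.8 CPM in the Cx, so that the regions overlapped there (interaction log2 value 5.28 ± 0.981 SE, edgeR adjusted p = 0.0087). That value is close to the limit and was lost without any 1 of the 6 P7 libraries (edgeR adjusted p 0.014 to 0.053). Itgax was at 3.25 to 10.2 CPM in the CC and at 1.07 to 2.70 CPM in the Cx at P10 (interaction 4.36 ± 0.665 SE, edgeR adjusted p = 0.0006). Its interaction remained past the limits without each of the 6 P7 libraries, and no P10 library was left out. Lag3, a receptor for MHC class II, was at 61.6, 60.3 and 70.8 CPM in the CC and at 12.1, 12.1 and 10.1 CPM in the Cx at P7 (log2 fold change 2.49, edgeR adjusted p = 2.3e-09), and at P10 at a median of 49.9 CPM in the CC and 26.9 CPM in the Cx (interaction 1.73 ± 0.266 SE, edgeR adjusted p = 0.0006). The other 8 were Pld3, Aplp2, Soat1, Syngr1, Plek, Pmp22, Chn2 and Hacd4, of which the last 4 were not called at P7.

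For other genes no change from P7 to P10 was shown. Apoe stood at 15094 to 18264 CPM in the CC and at 1832 to 1934 CPM in the Cx at P10 (interaction -0.32, edgeR adjusted p = 0.91), and Apoc1 at 34.2 to 55.5 CPM and at 1.43 to 2.83 CPM (interaction -0.42, adjusted p = 0.99). Pde2a was at a median of 41.2 CPM in the CC and 1.74 CPM in the Cx at P10, and Ccr1 at 42.3 and 292 CPM. Gpnmb was at a median of 4.23 CPM in the CC and 0.195 CPM in the Cx at P10: its level was low in both regions there while the ratio was still called (log2 fold change 4.32, edgeR adjusted p = 0.0084), and its interaction of 3.21 had an adjusted p of 0.54.

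**Figure D5:**
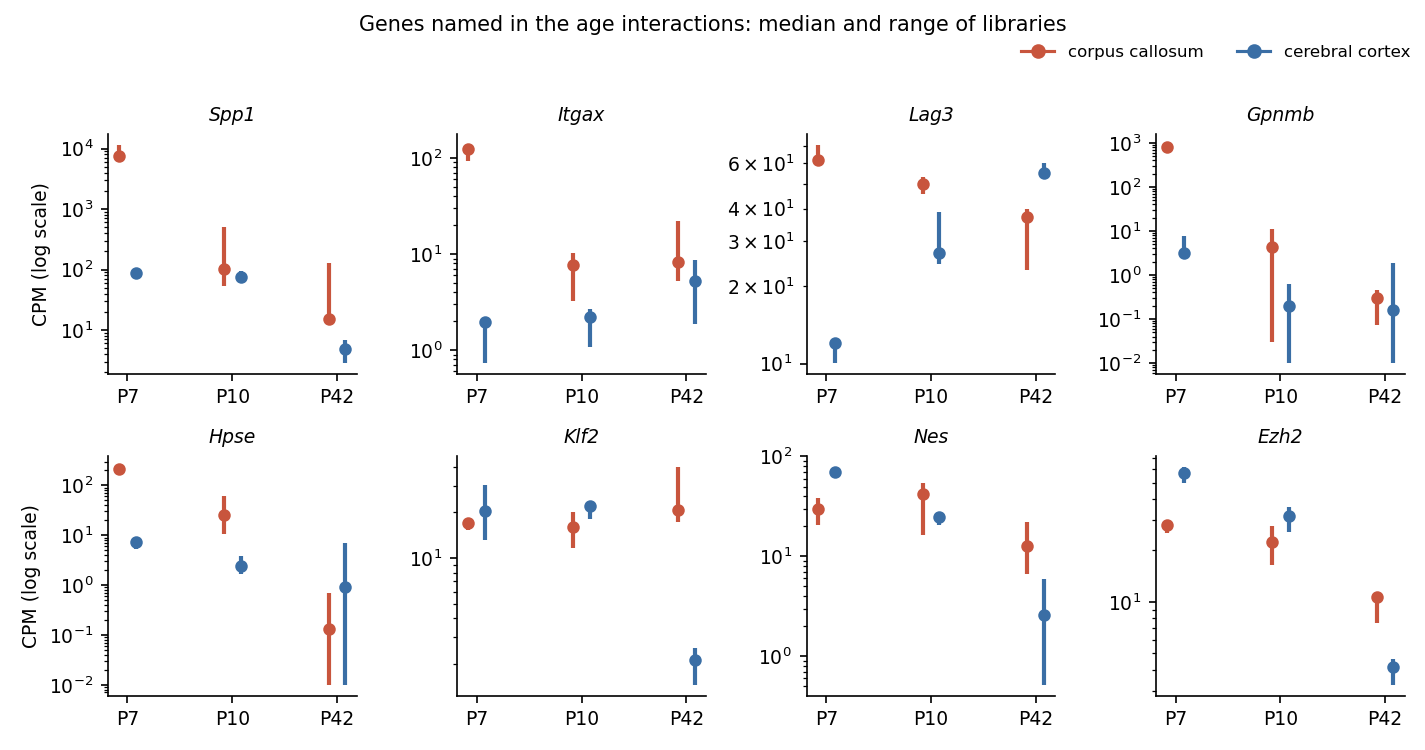
CPM (log scale, values of 0 drawn at 0.01) of the 8 genes named in the age interactions (the 3 largest values in each direction among called genes at or above 10 CPM on average), in the CC and the Cx; points are medians and lines run from the lowest to the highest of 3 libraries at P7 and of 4 at P10 and at P42. Spp1 and Itgax of the CC drop towards the Cx from P7 to P10, and the lines of Klf2 overlap at P7 and lie apart at P42.

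Between P7 and P42 the difference between regions changed for 111 genes (0.531%), with 76 having a higher value at P7 (0.363%) and 35 a lower one (0.167%). The largest positive values among well-expressed genes were those of Gpnmb (8.39, edgeR adjusted p = 0.0023), Hpse (8.17, edgeR adjusted p = 0.0015) and Itgax (5.13, edgeR adjusted p = 1.5e-05). Gpnmb reached at most 0.458 CPM in the CC and 1.82 CPM in the Cx at P42, so both regions were near 0. Hpse ranged from 0 to 0.706 CPM in the CC and from 0 to 7.05 CPM in the Cx at P42, where the fitted value had turned to the side of the Cx without a call (log2 fold change -3.15, edgeR adjusted p = 0.16). Without Cx P7 replicate 1 Hpse was not called (8.05, edgeR adjusted p = 0.01, above the limit before rounding).

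The most negative values belonged to Klf2, Nes and Ezh2. Klf2, a transcription factor of quiescence, was at 17.9, 16.9 and 15.4 CPM in the CC and at 20.4, 30.5 and 13.1 CPM in the Cx at P7, where the regions overlapped, and at P42 at 17.3 to 40.1 CPM in the CC and at 1.45 to 2.55 CPM in the Cx (interaction -3.93, edgeR adjusted p = 2.3e-07). Nes, the intermediate filament nestin, was at 20.7, 38.8 and 29.8 CPM in the CC and at 61.7, 70.0 and 79.1 CPM in the Cx at P7, with no call (log2 fold change -1.24, edgeR adjusted p = 0.3), and at P42 it was the CC that was higher, at 6.59 to 22.0 CPM against 0.517 to 5.89 CPM (interaction -3.46, edgeR adjusted p = 0.0037). Nes was not called without CC P7 replicate 1 (edgeR adjusted p = 0.023), CC P7 replicate 3 (0.016) or Cx P7 replicate 3 (0.012). Ezh2, the histone H3 lysine methyltransferase of the Polycomb complex, was lower in the CC at P7, at 28.2, 25.5 and 29.0 CPM against 49.4, 57.0 and 62.0 CPM (log2 fold change -1.03, edgeR adjusted p = 0.008), and higher in the CC at P42, at 7.54 to 11.1 CPM against 3.26 to 4.61 CPM (interaction -2.33, edgeR adjusted p = 1.9e-05). Ezh2 was the only gene of the 138 called in opposite directions at P7 and P42.

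The cerebellum, the other region with much white matter at this age, was set beside the CC at P7. Of all genes 15 differed (0.0717%), 1 higher (0.00478%) and 14 lower in the CC (0.0669%). The split was not stable: limma-voom called 29 higher and 23 lower, and the fit of only the groups compared 6 higher and 3 lower. For 5 of the genes with large increases in the CC the Cb lay between. Slpi was at 22.3, 13.7 and 20.0 CPM in the Cb, Gpnmb at 141, 238 and 285 CPM, Spp1 at 2825, 3814 and 6227 CPM, Itgax at 26.5, 35.8 and 34.6 CPM and Clec7a at 137, 131 and 155 CPM. Each of these Cb ranges was below the CC range and above the Cx range, and none of the 5 was called between CC and Cb. Apoc1 was an exception to that order, at 62.7, 121 and 86.0 CPM in the Cb, overlapping the CC. Ccr1 was at 34.4, 40.1 and 36.6 CPM in the Cb, overlapping the CC.

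The 1 gene called higher in the CC than in the Cb was S100a1, a calcium sensor, at 127, 136 and 126 CPM in the CC, 56.4, 53.1 and 44.3 CPM in the Cb and 41.0, 32.0 and 19.2 CPM in the Cx (CC minus Cb 1.34, edgeR adjusted p = 0.0055); it was not called without any 1 of the 6 CC and Cb libraries (adjusted p 0.021 to 0.045). Spint1 had the largest negative value among well-expressed genes (-2.31, edgeR adjusted p = 2.5e-07), with the Cb at 128, 108 and 132 CPM, above the Cx as well. Cd74, the invariant chain of MHC class II, was at 17.8, 22.8 and 39.7 CPM in the CC and at 102, 102 and 108 CPM in the Cb (-1.95, edgeR adjusted p = 0.0061). Rtp4, an interferon-induced chaperone, was at 14.4, 16.2 and 16.6 CPM and at 46.5, 60.4 and 51.8 CPM (-1.75, edgeR adjusted p = 0.0034). Neither pair of ranges overlapped. Cd74 was lost without CC replicates 1 and 2 and each Cb replicate (adjusted p 0.017 to 0.053), and Rtp4 without each CC replicate and Cb replicates 2 and 3 (0.01 to 0.022).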

How the data were processed

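RNA was taken from FACS-sorted microglia, amplified with the SMARTer Ultra Low v4 kit, which does not mark strand, and made into Nextera XT libraries. The authors called bases with CASAVA (1.8.2), mapped reads to GRCm38 with STAR (2.5.2b) and counted them per gene with featureCounts (1.6.2), leaving out multimapping reads and those on more than 1 gene; the annotation release and strand setting are not given in the sources used here. The deposited values are raw read counts for 48587 genes in 33 libraries, with no normalization. Genes with near copies or overlapping exons lose reads in such counting, and 33 of the 138 called genes share exon bases with another gene.

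After the authors' filter, the 10458 genes with the lowest summed counts were removed from the 31375 with a read. The remaining 20917 were fitted in R (4.3.3) with edgeR (4.0.16; TMM scaling, robust quasi-likelihood fit, 9 groups of region and age). Standard errors were derived from the F statistic. A gene was called at a Benjamini-Hochberg adjusted p of at most 0.01 and a log2 fold change of at least 1 in size; the age interactions and CC minus Cb came from the same fit. Alternatives were DESeq2 (1.42.0), limma-voom (3.58.1), other scaling and filters, sex as a covariate, a replicate block, fewer groups and each P7 library of the regions compared left out.

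Named were all called members of 20 pathway lists and 11 marker lists, the 12 largest increases and 8 largest decreases among called genes that averaged 10 CPM or more and whose libraries did not overlap, and up to 3 a direction in each other comparison, leaving out predicted genes; a few genes that the rule names are not reported here. The members and the lists were chosen with earlier results of these data known. The depth of 24383544 to 40575511 reads a library sets the counting error only, with 3 reads taken as the limit of detection. Libraries of 1 region differed by far more than counting error, with a chi-square of counts per degree of freedom of 41.93 to 88.29. The replicate numbers of the labels were not taken to pair the libraries, since no source says that they mark an animal and deviations of same-numbered libraries correlated at 0.0012, -0.0708 and -0.00444.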

Additional observations from a re-analysis of the deposited data

Results flagged for a closer look

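The difference between CC and Cx changed with age by a test of the change itself (edgeR, adjusted p at most 0.01 and log2 value at least 1 in size). It did so for 11 genes between P7 and P10, with interaction values of 5.28 for Spp1, 4.36 for Itgax and 1.73 for Lag3. Between P7 and P42 it did so for 111 genes, with values of 8.39 for Gpnmb, 8.17 for Hpse, 5.13 for Itgax, -3.93 for Klf2, -3.46 for Nes and -2.33 for Ezh2. The P10 value of Spp1 and the P42 values of Gpnmb, Hpse and Nes were not called under some of the alternatives given below.

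In 3 of 32 groups of 4 libraries examined for these genes at P10 and P42, 1 library passed the outlier limit of Dixon's ratio (its gap to the nearest library over the range). The genes were picked for large interaction values and the ratio was taken on unlogged CPM, so no chance rate is set beside the count. Spp1 was at 128 CPM in CC P42 replicate 2 (nearest library 15.6 CPM). Gpnmb was at 1.82 CPM in Cx P42 replicate 1 (nearest 0.291 CPM) and Ezh2 at 7.54 CPM in CC P42 replicate 3 (nearest 10.6 CPM). Outside the genes, reads on the 92 spike-in sequences of the table numbered 4 to 18 in the 6 libraries at P7, and there is no control library to set them against.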

How the results depend on the processing

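The count of 138 genes between CC and Cx at P7 became 258 with DESeq2 and 91 to 125 without 1 library at a time. With limma-voom, the method the study itself used, it was 191, of which 104 were among the 138. With only the groups compared it was 182, of which 108 were among the 138. The 11 genes of the P7 to P10 interaction became 101 with DESeq2, 29 with limma-voom, 6 with only the groups compared and 7 to 10 without 1 P7 library. The 111 of the P7 to P42 interaction became 331 with DESeq2, 50 with only the groups compared and 76 to 106 without 1 P7 library. No P10 or P42 library was left out in either interaction. The 15 between CC and Cb became 79 with DESeq2, 52 with limma-voom, 9 with only the groups compared and 7 to 12 without 1 library. The share of calls that were higher in the CC, 78.3%, was 66.3% with DESeq2 and 77.4% to 88.8% under the others, and the other scaling (RLE factors) moved the median of all genes by 0.0202. Of the 55 genes named between CC and Cx, 33 were called under each alternative, 22 were lost under at least 1 and 0 changed sign. Beside Spp1, Apoe and Ctsb, limma-voom lost Mitf, Ctsa, Serpine2, Tmem119, Camk2n1, Slco4a1, Lrba and Epha2, the fit of only the groups compared lost Camk2n1, Spint1, Slco4a1 and Lrba, and testing without a filter lost Hpse, Anxa2 and Ccr1. The P10 interaction of Spp1 was lost under 10 of 14 alternatives, and the P42 interactions of Gpnmb, Hpse and Nes were lost with limma-voom. The precision weights of limma-voom reached 6.8e+07 for Apoe and 4.2e+10 for Ctsb. The number of members of the pathway lists called, 45, ranged from 37 to 63. With the replicate number as a block, 122 genes were called between CC and Cx (115 of them among the 138), 11 and 93 in the P10 and P42 interactions and 11 between CC and Cb; Hpse, Srebf2 and Camk2n1 were lost, with the P42 interactions of Gpnmb, Hpse and Nes and the CC minus Cb value of Rtp4. Whether same-numbered libraries of different regions came from the same animal is not given, although their sexes match, and none of their correlations was over 0.1.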

Other observations

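Genes called in none of the lists numbered 92 of 138, and those given here were chosen after their values were seen. Lyz2, lysozyme, was at 1925, 1994 and 2059 CPM in the CC and at 372, 378 and 349 CPM in the Cx (log2 fold change 2.44, edgeR adjusted p = 8.3e-12). Sepp1, the secreted selenium carrier selenoprotein P, was at 12550, 13286 and 12375 CPM in the CC and at 3987, 4950 and 4963 CPM in the Cx (log2 fold change 1.46, edgeR adjusted p = 2.1e-13). Both were abundant and tight within each region. Pld3, a lysosomal exonuclease, was at 1035, 902 and 1025 CPM in the CC and at 265, 299 and 214 CPM in the Cx (log2 fold change 1.93, edgeR adjusted p = 1.1e-11), and Nceh1, which hydrolyses cholesteryl esters outside the lysosome, at 113, 124 and 122 CPM and at 13.9, 18.1 and 26.9 CPM (log2 fold change 2.61, edgeR adjusted p = 3.3e-06). Dkk2, a secreted Wnt modulator, had 151, 586 and 1039 reads in the CC and 1, 2 and 0 in the Cx, at least 213-fold higher against 3 reads a library.

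Lower in the CC were both genes of the first step of leukotriene synthesis. Alox5 was at 12.1, 13.0 and 13.5 CPM in the CC and at 28.6, 36.5 and 23.5 CPM in the Cx (log2 fold change -1.19, edgeR adjusted p = 0.002), and its membrane partner Alox5ap at 150, 135 and 127 CPM and at 306, 282 and 250 CPM (log2 fold change -1.03, edgeR adjusted p = 2.5e-08). Neither gene's groups overlapped. Ccnd1, the cyclin of the G1 phase, was at 26.7, 43.1 and 49.3 CPM in the CC and at 119, 88.0 and 67.7 CPM in the Cx (log2 fold change -1.20, edgeR adjusted p = 0.0071). Cdca7, a cell-cycle gene, and Smc2, a condensin subunit, were -1.14 and -1.07 on the log2 scale (edgeR adjusted p 0.0041 and 0.0042). Slc7a5, a transporter of large neutral amino acids, was at 44.0, 44.9 and 32.8 CPM in the CC and at 89.4, 87.1 and 94.5 CPM in the Cx (log2 fold change -1.16, edgeR adjusted p = 0.0011).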
